A study of Homo sapiens with 6 samples.

Results

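The mitochondrial chromosome carries 37 genes, and all 37 were present among the 61859 genes of the count table. They were chosen as the genes whose symbol starts with MT-, looked up from the Ensembl identifier, and comprise 13 messenger RNA (mRNA), 22 transfer RNA (tRNA) and 2 ribosomal RNA (rRNA) genes. In the annotation 28 lie on the plus strand of the reference chromosome and 9 on the minus strand, namely MT-ND6 and 8 tRNA genes. RNA was sequenced from IOMM-Lee, an established cell line labelled as grade 3, or malignant, meningioma, which grows from the membranes around the brain. The hypoxia group was 3 biological replicates kept for 48 h in a workstation at 0.2% oxygen and 5% CO2. The normoxia group was 3 biological replicates labelled with the same time, whose oxygen level the labels do not state. Both groups share the line, a medium with 10% serum and 37 °C, and with 1 line the replicates measure the spread between cultures of that line alone. The labels do not say how the cultures were separated, so the p-values measure the spread between these libraries.

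In mammals both strands of the mitochondrial chromosome are transcribed into long RNAs that span many genes, starting in the control region next to MT-TF and MT-TP. The tRNA sequences stand between most mRNAs and rRNAs in these precursors and are cut out at both ends, which releases the RNAs on either side. The mRNAs encode core subunits of the respiratory chain and the ATP synthase, and the rRNAs and tRNAs serve the translation of those mRNAs inside the organelle. Most of the mRNAs, both rRNAs and most tRNAs come from the plus-strand precursor, and MT-ND6 is the one mRNA of the minus-strand precursor.

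The sequences of 6 tRNA genes are shown because the results by strand and by RNA type turn on them. They are transcript sequences of GENCODE release 29 on GRCh38, written 5′ to 3′ in the sense of the gene, with the anticodon in capitals. Each anticodon was found as the middle of a 7-base loop closed by a stem and matched to the amino acid by the vertebrate mitochondrial code. MT-TC, MT-TN and MT-TY, for cysteine, asparagine and tyrosine, lie side by side on the minus strand at chrM:5761-5826, chrM:5657-5729 and chrM:5826-5891. The 31 bases between MT-TN and MT-TC hold the origin of light-strand DNA replication. MT-TE and MT-TP, for glutamate and proline, lie on the same strand at chrM:14674-14742 and chrM:15956-16023, nearer to the control region. MT-TF, for phenylalanine, is the first gene of the plus strand, at chrM:577-647.
MT-TC: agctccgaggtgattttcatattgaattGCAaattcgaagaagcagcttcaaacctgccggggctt
MT-TN: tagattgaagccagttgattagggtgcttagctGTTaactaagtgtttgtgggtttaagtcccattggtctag
MT-TY: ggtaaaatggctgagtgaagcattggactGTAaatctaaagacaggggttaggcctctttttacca
MT-TE: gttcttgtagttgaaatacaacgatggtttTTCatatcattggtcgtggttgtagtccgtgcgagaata
MT-TP: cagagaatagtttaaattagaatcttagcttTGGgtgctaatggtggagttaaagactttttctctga
MT-TF: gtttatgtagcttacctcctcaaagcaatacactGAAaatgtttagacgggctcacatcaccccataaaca

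The hypoxia libraries held 10619864 to 18447885 counts and the normoxia libraries 14685317 to 19554178. All 8 oxygen-responsive genes used to check the labels, CA9 and NDRG1 among them, were higher in hypoxia (edgeR adjusted p under 0.05). Over all tested genes 31.2% were called higher and 31.0% lower, the background for the marker calls here. Of 10 meningioma and arachnoid markers, VIM, MUC1, DSP and CRABP2 were called higher and SSTR2 lower, SLC1A3 and CDH11 were not called, and PTGDS, CDH1 and PGR were not tested, averaging under 0.1 CPM in both groups. Their summed level was 6132 to 7709 CPM in hypoxia and 2722 to 3581 CPM in normoxia. Most of that sum was VIM, at 6149 ± 930 CPM in hypoxia and 3052 ± 429 CPM in normoxia (SD, n = 3 each). SSTR2 was at 0.300 ± 0.182 CPM in hypoxia and 0.844 ± 0.272 CPM in normoxia (SD, n = 3 each). CPM is the usual depth-scaled count (edgeR's cpm), here relative to the library total scaled by TMM, a factor that aligns most genes between libraries. The summed level of 5 leukocyte markers was 0.783 to 1.43 CPM in hypoxia and 0.368 to 0.817 in normoxia, and that of 4 keratinocyte markers was 0 CPM in every hypoxia library and at most 0.311 CPM in normoxia. The sum of 4 endothelial markers was 4.01 to 6.26 CPM in hypoxia and 13.6 to 16.8 CPM in normoxia. Of these TEK was called lower, at 3.30 ± 0.615 CPM in hypoxia and 13.6 ± 1.28 CPM in normoxia (SD, n = 3 each). PECAM1 was not called, at 1.69 ± 1.59 CPM in hypoxia and 0.945 ± 0.286 CPM in normoxia, and VWF and CDH5 were not tested. The sum of 5 glial and neuronal markers was 12.3 to 15.3 CPM in hypoxia and 17.5 to 22.8 CPM in normoxia. Of these SYP was called higher, OLIG2 and MBP were called lower, and GFAP and RBFOX3 were not called. The part of all these cell type markers in the results below was not tested. A floor of 3 counts in a library corresponded to between 0.133 and 0.316 CPM, and floors and intervals cover counting error only. In bulk RNA, fewer mitochondria per cell, fewer cells with much mitochondrial RNA and less RNA per mitochondrion cannot be told apart.

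Mitochondrial mRNAs took a smaller share of the counts in hypoxia, and most of them were called lower, whereas neither rRNA was. The 13 mRNA genes took 2.97%, 2.23% and 2.02% of all counts in the hypoxia libraries, against 6.84%, 7.23% and 6.34% in the normoxia libraries. The lowest normoxia library was thus above every hypoxia library. The 22 tRNA genes took 0.0274% ± 0.00954 in hypoxia and 0.0397% ± 0.00772 in normoxia (SD, n = 3 each). The 2 rRNA genes took 0.0263% ± 0.0137 in hypoxia and 0.0246% ± 0.0102 in normoxia. The groups overlapped for both of these classes. Both rRNA genes together had 4605, 2196 and 3019 counts in the hypoxia libraries, against 3497, 2875 and 5821 counts in the normoxia libraries. MT-ATP8, the shortest mRNA, had 2284, 1670 and 1198 counts in hypoxia, against 23472, 20993 and 15482 counts in normoxia. It lay below the summed rRNA counts in every hypoxia library and above them in every normoxia library. MT-RNR1 alone, at 1383, 672 and 931 counts in hypoxia, lay below MT-ATP8. Per length, MT-ATP8 was above both rRNAs in every hypoxia library. It had 778 ± 409 CPM per kb there, against 94.5 ± 51.0 for MT-RNR1 and 133 ± 74.4 for MT-RNR2 (SD, n = 3 each). How the RNA was selected before library preparation is not given in the sources used here, so these shares are not the make-up of mitochondrial RNA in the cells.

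Of 28 members with enough counts to be tested, 19 were lower in hypoxia and 0 higher at an adjusted p under 0.05 (edgeR quasi-likelihood test, Benjamini-Hochberg adjustment over 16411 genes). Over all tested genes 62.2% were called, 31.0% lower and 31.2% higher. No member was higher at an unadjusted p under 0.05 either, and MT-TF came nearest at 0.0507. By type, 11 of 13 mRNA genes, 8 of 13 tested tRNA genes and 0 of 2 rRNA genes were lower. By annotated strand, 16 of 21 tested plus-strand genes and 3 of 7 tested minus-strand genes were lower. The median log2 change was -1.19 over the mRNAs and -2.86 over the tested tRNAs, beside 0.01 over all tested genes. These medians leave out 9 tRNA genes that failed the filter on low counts. MT-TY, MT-TK, MT-TR, MT-TH, MT-TL2, MT-TT, MT-TW and MT-TA reached its level in every normoxia library but not in every hypoxia library. The tRNA calls and the tRNA median therefore follow in part from that filter. The groups did not overlap in 19 of the 28 tested members, each time lower in hypoxia, where 67.9% of all tested genes lay apart and 34.4% lay apart as lower. DESeq2 called MT-TF and MT-TE higher, and the fit without hypoxia replicate 3 did as well.

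**Figure D1:**
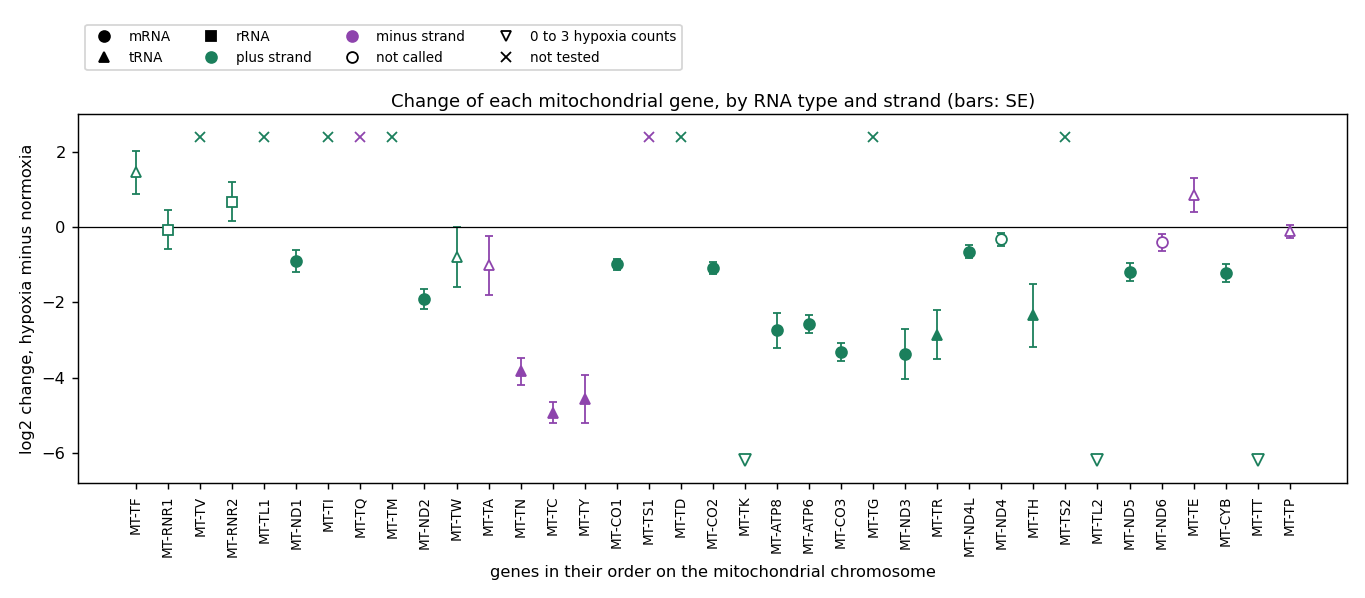
Log2 change of hypoxia minus normoxia with its SE (edgeR) for the mitochondrial genes in chromosome order, with colour for strand, shape for RNA type and open symbols for genes not called. Crosses mark 9 tRNA genes that were not tested and open downward triangles 3 called tRNA genes with 0 to 3 counts over the hypoxia libraries, both drawn at an arbitrary height. The lowest filled points are MT-TC, MT-TY and MT-TN on the minus strand and MT-CO3 and MT-ND3 on the plus strand, and MT-TF, MT-RNR2 and MT-TE lie above 0 but were not called.

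The mRNAs fell by very different amounts, and the strongest falls lay next to each other. MT-ATP8, MT-ATP6, MT-CO3 and MT-ND3 follow one another on the chromosome, with MT-TG between the last pair, and each was called at least 4-fold lower. MT-ATP8 and MT-ATP6 overlap by 46 bases, so their falls are not separate observations. Across all tested genes 5.72% were called at least 4-fold lower. MT-CO3, a core subunit of cytochrome oxidase (complex IV), had 630, 419 and 306 CPM in the hypoxia libraries, against 4368, 4557 and 4642 CPM in the normoxia libraries. The normoxia libraries lay close together and the hypoxia libraries spread more widely below them, and the change on the log2 scale was -3.32 ± 0.24 (SE; edgeR adjusted p = 4.91e-06). MT-ND3, a subunit of NADH dehydrogenase (complex I), had 151, 87.0 and 41.5 CPM in hypoxia, against 554, 815 and 1520 CPM in normoxia. The 3 values differed widely within each group, yet the groups stood apart, and the gene changed by -3.38 ± 0.66 on the log2 scale (SE; edgeR adjusted p = 0.0079).

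MT-ATP6 and MT-ATP8 encode the 2 ATP synthase subunits of the organelle and share 46 bases of sequence. MT-ATP6 had 1453, 1024 and 708 CPM in hypoxia, against 5882, 6903 and 6237 CPM in normoxia, and was 5.97-fold lower (edgeR adjusted p = 1.87e-05). MT-ATP8 had 241, 170 and 72.1 CPM in hypoxia, against 1042, 1286 and 904 CPM in normoxia, and was 6.71-fold lower (edgeR adjusted p = 0.00356). How the counting treated reads in the shared bases is not given in the sources used here, so the split between them is uncertain. MT-ND2, a complex I subunit further upstream, had 1835, 1260 and 824 CPM in hypoxia, against 4962, 5296 and 4471 CPM in normoxia. Its fall of 3.76-fold was the next in size (edgeR adjusted p = 0.000332).

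The remaining called mRNAs fell between 1.57-fold and 2.32-fold. MT-CO1, the catalytic subunit of cytochrome oxidase and the most abundant member, had 8586, 6240 and 8229 CPM in hypoxia, against 15031, 15946 and 14887 CPM in normoxia. It was 1.99-fold lower (edgeR adjusted p = 0.000133). MT-CO2, the subunit that receives electrons from cytochrome c, was 2.14-fold lower, so that the 3 cytochrome oxidase subunits encoded here fell by 1.99-fold, 2.14-fold and 10.0-fold. MT-CYB, the cytochrome b of complex III, was 2.32-fold lower and MT-ND5 of complex I 2.29-fold lower. MT-ND1 had 2255, 1751 and 937 CPM in hypoxia, against 2811, 3253 and 3215 CPM in normoxia (edgeR adjusted p = 0.0252). Without normoxia replicate 2 that adjusted p was 0.0531. MT-ND4L was 1.57-fold lower (edgeR adjusted p = 0.00562). Whether it differed from MT-ND4, with which it shares 7 bases, was not tested.

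MT-ND4 and MT-ND6 were not called. MT-ND4, a complex I subunit that shares 7 bases with MT-ND4L, had 7581, 5065 and 4893 CPM in hypoxia, against 7422, 8073 and 6556 CPM in normoxia. Hypoxia replicate 1 lay within the normoxia range and the other hypoxia libraries below it, a difference of -0.33 ± 0.17 on the log2 scale (SE; edgeR adjusted p = 0.119). MT-ND6, the complex I subunit of the minus strand, had 2007, 1512 and 982 CPM in hypoxia, against 1807, 2150 and 1988 CPM in normoxia, a difference of -0.40 ± 0.22 on the log2 scale (SE; edgeR adjusted p = 0.15). Both passed the threshold as lower without hypoxia replicate 1, at -0.57 and -0.68, and when low-count genes were not filtered, at -0.46 and -0.54. With library totals in place of TMM, which shifts the median of all genes to -0.30, they passed at -0.65 and -0.72. Over the 7 complex I mRNAs the log2 changes therefore ran from -3.38 for MT-ND3 to -0.33 for MT-ND4.

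The make-up of the mRNA pool differed between the groups, which can be read within each library and does not depend on the scaling between libraries. MT-ND4 made up 22.1%, 21.0% and 21.8% of the counts of the 13 mRNAs in hypoxia, against 12.5%, 12.4% and 11.0% in normoxia. MT-CO3 made up 1.83%, 1.74% and 1.37% in hypoxia, against 7.36%, 7.01% and 7.81% in normoxia. These ranges are narrow within each group and far apart between groups. The share of the pool was higher in every hypoxia library for MT-ND4, MT-ND4L and MT-ND6, and lower in every hypoxia library for MT-ND2, MT-ATP8, MT-ATP6, MT-CO3 and MT-ND3. For MT-ND1, MT-CO1, MT-CO2, MT-ND5 and MT-CYB the groups overlapped. MT-CO1 stood at 36.7% in hypoxia replicate 3, against 25.0% and 25.9% in the other hypoxia libraries and 24.5% to 25.3% in normoxia. These shares were not tested.

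Ratios of single pairs, chosen after their values were seen, show the size of these differences. There were 13.6, 14.9 and 26.9 counts of MT-CO1 for each count of MT-CO3 in hypoxia, against 3.44, 3.50 and 3.21 in normoxia. There were 0.720, 0.764 and 0.767 counts of MT-ND6 for each count of MT-CYB in hypoxia, against 0.386, 0.435 and 0.450 in normoxia. MT-ND6 and MT-CYB lie on opposite strands with MT-TE between them.

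Per length, the mRNAs were spread more widely in hypoxia. The highest mRNA exceeded the lowest by 12.8, 16.1 and 44.5 times in the hypoxia libraries, against 6.09, 4.39 and 3.19 times in the normoxia libraries. MT-CO1 was the highest in all 6 libraries, at 4984 ± 820 CPM per kb in hypoxia and 9914 ± 373 CPM per kb in normoxia (SD, n = 3 each). MT-ATP6 was the second highest in every normoxia library, at 9311 ± 761 CPM per kb, and ranked 7 or 8 of 13 in the hypoxia libraries, at 1560 ± 549 CPM per kb. MT-ND4 was the second highest in every hypoxia library, at 4243 ± 1092 CPM per kb, and ranked 5 in each normoxia library, at 5334 ± 552 CPM per kb. MT-ND3 was the lowest in every hypoxia library, at 269 ± 159 CPM per kb. In normoxia its level per length was 2783 ± 1444 CPM per kb, a range that takes in those of MT-ND1 and MT-ND5. Hypoxia replicate 1 had the highest and replicate 3 the lowest mitochondrial share of counts in that group, 3.05% and 2.05%. The log2 changes of MT-CO3, MT-ATP6, MT-ND2 and MT-ND3 were at or below -1.70 with any 1 library left out.

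**Figure D2:**
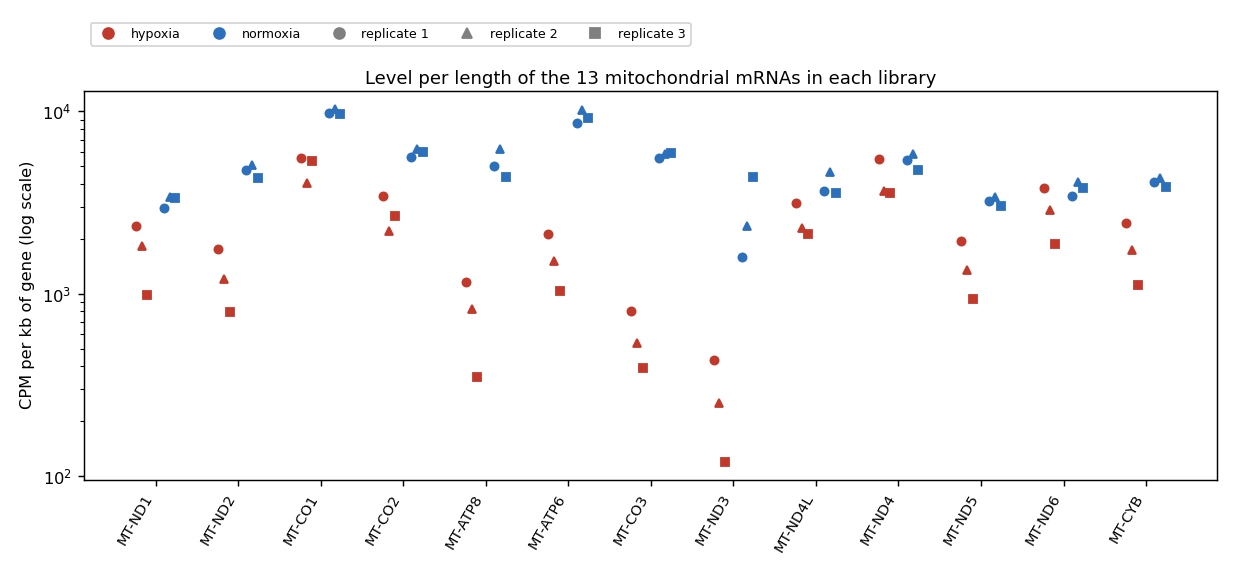
Level of the 13 mitochondrial mRNAs in CPM per kb of gene, on a log axis, with 1 point for each library, hypoxia in red at the left and normoxia in blue at the right of each gene. The groups stand apart most for MT-CO3, MT-ND3, MT-ATP8 and MT-ATP6, overlap for MT-ND4 and MT-ND6, and MT-CO1 is the highest in all 6 libraries.

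Among tested tRNAs with more than 3 counts over the hypoxia libraries, the 3 minus-strand genes around the light-strand origin had the lowest log2 changes, while MT-TP and MT-TE of the same strand were not called. That cut leaves out the plus-strand genes MT-TK, MT-TL2 and MT-TT, with 0, 1 and 3 hypoxia counts. Their log2 changes were -6.37, -4.84 and -3.64, at too few counts to rank, so the order given here depends on that cut. Large falls were therefore not confined to the minus strand. MT-TC had 3.69, 3.36 and 2.35 CPM in hypoxia, against 65.9, 124 and 88.5 CPM in normoxia, and was 30.4-fold lower (edgeR adjusted p = 1.36e-06). MT-TN had 5.69, 3.67 and 2.35 CPM in hypoxia, against 39.4, 73.1 and 48.0 CPM in normoxia, and was 14.3-fold lower (edgeR adjusted p = 4.21e-05). The lowest normoxia library exceeded the highest hypoxia library for both. MT-TY had 0, 0 and 7 counts in hypoxia, against 90, 103 and 63 counts in normoxia. The ratio of the summed MT-TY levels, hypoxia over normoxia, was 0.0426, with a 95% counting interval of 0.0170 to 0.0891 (edgeR adjusted p = 0.000147). The fourth gene of the cluster, MT-TA for alanine, had 14, 9 and 0 counts in hypoxia, against 33, 20 and 28 counts in normoxia, and was not called (edgeR adjusted p = 0.287).

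MT-TP, the first gene of the minus-strand precursor, had 143, 98.4 and 108 CPM in hypoxia, against 102, 133 and 143 CPM in normoxia. The groups overlapped, at a difference of -0.12 ± 0.16 on the log2 scale (SE; edgeR adjusted p = 0.554), which became -0.43 and passed the threshold with library totals alone (edgeR adjusted p = 0.0183). Next on that strand, MT-TE had 14.7, 14.0 and 4.33 CPM in hypoxia, against 5.72, 4.11 and 8.11 CPM in normoxia (log2 change 0.85 ± 0.46, SE; edgeR adjusted p = 0.146). Hypoxia replicate 3 was low there, and without it the change was 1.23 and passed (edgeR adjusted p = 0.000999). In the order of the minus-strand precursor, away from the control region, the log2 changes were -0.12 for MT-TP, 0.85 for MT-TE, -0.40 for MT-ND6, -4.57 for MT-TY, -4.93 for MT-TC, -3.83 for MT-TN and -1.02 for MT-TA. With 1 library left out, MT-TY ranged from -9.13, where both hypoxia libraries left had 0 counts, to -4.12, and MT-TA from -1.94 to -0.30. MT-TS1 between MT-ND6 and MT-TY, and MT-TQ at the far end, had 1 and 2 counts over the hypoxia libraries, against 18 and 25 counts over the normoxia libraries, and were not tested. There were 38.9, 29.2 and 45.8 counts of MT-TP for each count of MT-TC in hypoxia, against 1.55, 1.07 and 1.62 in normoxia, a pair chosen after its values were seen.

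On the plus strand MT-TF, which directly precedes MT-RNR1, had 241, 194 and 72.5 CPM in hypoxia, against 38.3, 54.3 and 92.2 CPM in normoxia. The change of 1.46 ± 0.57 on the log2 scale did not pass the threshold (SE; edgeR adjusted p = 0.0767), as hypoxia replicate 3 lay within the normoxia range. Without hypoxia replicate 3 or normoxia replicate 3 it passed, at 1.79 and 1.85, and with DESeq2 and limma-voom it passed at adjusted p of 0.026 and 0.0191. The other plus-strand tRNAs had few counts. MT-TR, for arginine, was 7.25-fold lower, at 0.352 ± 0.209 CPM in hypoxia and 2.35 ± 1.38 CPM in normoxia (SD; edgeR adjusted p = 0.00338). MT-TK, for lysine, had 0 counts in every hypoxia library, against 13, 13 and 11 counts in normoxia (edgeR adjusted p = 0.00114), and was at least 7.91-fold lower when 3 counts over the hypoxia group are taken as the floor.

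MT-TL2, for leucine, had 1 count over the hypoxia libraries, against 57 over the normoxia libraries, a ratio of 0.0274 in level with a 95% counting interval of 0.000681 to 0.159. MT-TT, for threonine, had 3 counts over hypoxia, against 63 over normoxia, a ratio of 0.0742 with an interval of 0.0149 to 0.227. Both were called lower (edgeR adjusted p = 0.000699 and 0.00405). MT-TH, for histidine, had 10, 0 and 1 counts in hypoxia, against 31, 38 and 23 in normoxia (edgeR adjusted p = 0.0331). Its call was lost without hypoxia replicate 2 or 3, without normoxia replicate 1 or 2 and with a replicate block, at adjusted p from 0.053 to 0.107. MT-TW, for tryptophan, was at 1.26 ± 1.27 CPM in hypoxia and 2.01 ± 1.06 CPM in normoxia and was not called (edgeR adjusted p = 0.415). It passed as lower without hypoxia replicate 1 (edgeR adjusted p = 0.0469).

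Of the 9 untested tRNA genes, MT-TD, MT-TS2, MT-TG and MT-TM had 7, 3, 3 and 2 counts over the hypoxia libraries, against 56, 38, 30 and 27 counts over the normoxia libraries. For MT-TM the normoxia libraries had 5, 19 and 3 counts, and the groups overlapped in CPM. MT-TI, MT-TL1 and MT-TV had 5, 2 and 0 counts in hypoxia, against 9, 5 and 4 counts in normoxia, too few to show a difference at this depth. The tRNA genes are 59 to 75 bases long and adjoin longer genes, and a fragment that covers such a junction belongs to an uncut precursor as well as to a gene. How such fragments were counted, and with which strand setting, is not given in the sources used here. Reads of the opposite precursor therefore cannot be told apart from those of a gene. That bears on genes of both strands and on every comparison between strands.

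**Figure D3:**
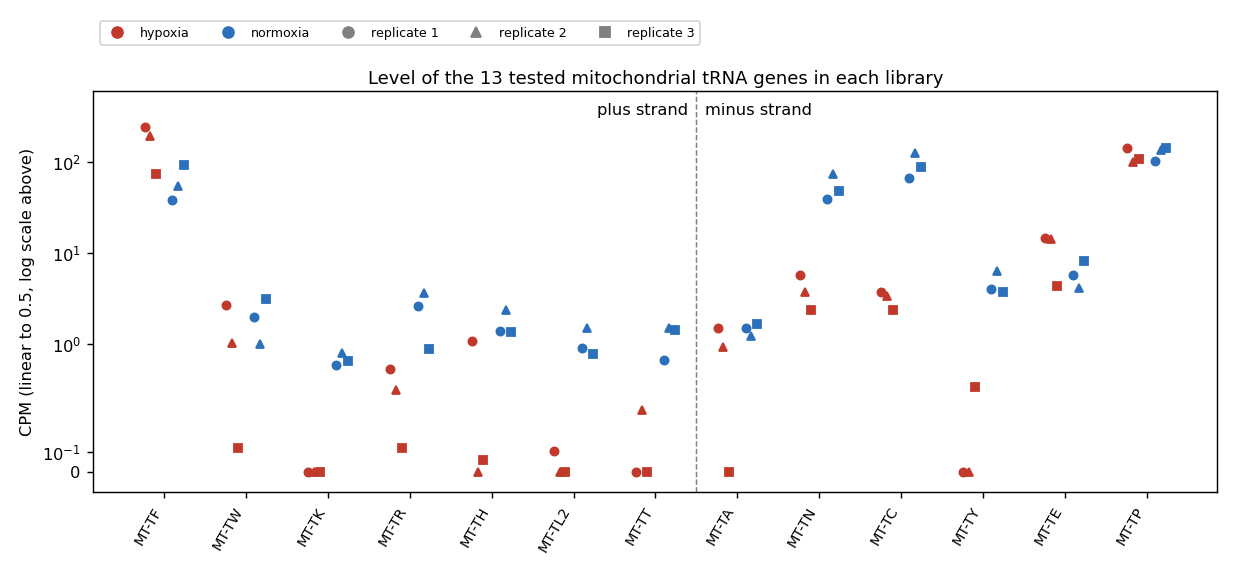
Level of the 13 tested mitochondrial tRNA genes in CPM, linear up to 0.5 and on a log scale above, with 1 point for each library, hypoxia in red at the left and normoxia in blue at the right of each gene. MT-TN, MT-TC and MT-TY are lower in all 3 hypoxia libraries, while MT-TP, MT-TE and MT-TF overlap between groups, with hypoxia replicate 3 the lowest hypoxia library for MT-TE and MT-TF.

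Neither rRNA was called, and for both the groups overlapped. MT-RNR1, the small-subunit rRNA, had 146, 68.5 and 56.0 CPM in hypoxia, against 67.4, 67.6 and 148 CPM in normoxia (log2 change -0.07 ± 0.52, SE; edgeR adjusted p = 0.917). MT-RNR2, the large-subunit rRNA, had 340, 155 and 126 CPM in hypoxia, against 87.8, 109 and 192 CPM in normoxia (log2 change 0.67 ± 0.51, SE; edgeR adjusted p = 0.303). Hypoxia replicate 1 and normoxia replicate 3 were the high libraries of both genes. Against MT-ND1, the first mRNA after it, MT-RNR2 stood at 0.151, 0.0887 and 0.134 counts per count in hypoxia and at 0.0312, 0.0334 and 0.0597 in normoxia, another pair chosen after its values were seen.

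Within libraries, the ratios between the classes were higher in every hypoxia library, though those for tRNA and strand moved when abundant members were left out. The rRNA genes had 14.1, 9.27 and 8.11 counts per 1000 mRNA counts in hypoxia, against 2.61, 2.71 and 5.72 in normoxia. The tRNA genes had 12.1, 13.1 and 8.48 counts per 1000 mRNA counts in hypoxia, against 4.53, 6.33 and 6.67 in normoxia. The groups stood apart in both ratios. Without MT-TF, a step added after the values were seen, the tRNA ratio was 5.09, 5.08 and 5.24 in hypoxia, against 3.89, 5.50 and 5.11 in normoxia, and the groups overlapped. MT-TF made up 58.0%, 61.3% and 38.1% of all tRNA counts in hypoxia, against 14.2%, 13.2% and 23.3% in normoxia. MT-TC made up 0.887%, 1.06% and 1.24% in hypoxia, against 24.5%, 30.1% and 22.3% in normoxia.

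Minus-strand genes had 65.8, 70.8 and 50.7 counts per 1000 plus-strand counts in hypoxia, against 35.1, 39.5 and 39.4 in normoxia. The strand is that of the annotation, and with the strand setting not given, either count may hold reads of the other strand. MT-ND6 supplied most of the minus-strand counts, and with MT-ND6 and MT-CO1 left out the log2 difference of the ratio was 0.25 in place of 0.70. When each tested member was weighed alike, as a mean of log2 counts, the tRNA ratio differed by -0.57 and the strand ratio by -0.46. MT-TK, MT-TL2, MT-TT and MT-TY enter these means, though they reached the low-count filter in normoxia only and had hypoxia libraries with 0 counts. The means, that for tRNA above all, follow in part from the filter and do not settle a direction. Abundant members thus weighed heavily in these 2 ratios. The rRNA ratio kept its sign, at 1.92 against 1.57 on the log2 scale. How the RNA was selected is not given, so the rRNA ratio is not that in the cells.

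**Figure D4:**
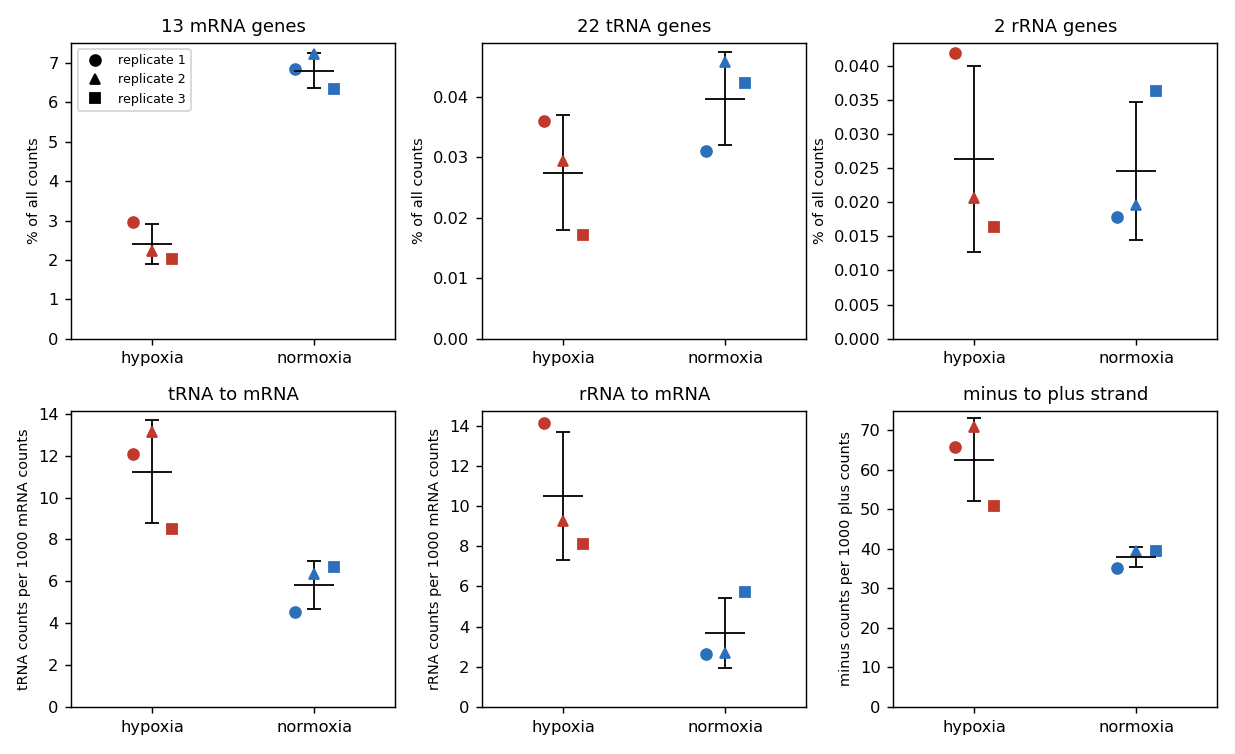
Share of all counts taken by the mRNA, tRNA and rRNA genes (upper row) and the ratios between classes within a library (lower row), with 1 point for each library and the mean ± SD (n = 3 each), hypoxia at the left and normoxia at the right. The mRNA share lies between 2.02% and 2.97% in hypoxia and between 6.34% and 7.23% in normoxia, the tRNA and rRNA shares overlap, and all 3 ratios are higher in every hypoxia library.

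The nuclear genome holds many copies of mitochondrial sequence, and reads can match both. Of 404 such copies in the table, 131 had a count and 18 were tested. Of the tested copies 6 were called lower and 4 higher, beside 31.0% and 31.2% of all tested genes. Every copy that averaged above 2 CPM over the libraries had a negative log2 change. The counts of the 131 copies together equalled 0.617% of the mitochondrial gene counts in hypoxia and 0.845% in normoxia. MTND2P28 (GRCh38 chr1:629640-630683), a copy of MT-ND2, had 61.1, 45.5 and 36.4 CPM in hypoxia, against 303, 363 and 252 CPM in normoxia, and changed by -2.69 ± 0.21 on the log2 scale (SE; edgeR adjusted p = 6.82e-06). Nearby, MTATP6P1 was at 70.0 ± 33.7 CPM in hypoxia and 137 ± 22.6 CPM in normoxia (edgeR adjusted p = 0.0594), and its fall passed the threshold with DESeq2, limma-voom, library totals alone, scaling on nuclear genes, a replicate block and without hypoxia replicate 1. Also beside it, MTCO1P12 had a log2 change of -1.14, beside -0.99 for MT-CO1, and MTATP8P1 one of -1.39, a call lost without hypoxia replicate 2 (0.0538) or 3 (0.057) or normoxia replicate 1 (0.0788). On chromosome 5, MTND4P12 had a log2 change of -0.86, MTND5P11 of -2.17 and MTND6P4 of -2.27. The 4 copies called higher, MTND1P11, MTCO3P29, MTCYBP3 and MTND5P26, each averaged under 2 CPM in both groups, as did MTCO1P40, MTCO1P11 and MTND4P15, which were not called. The call of MTND1P11 (edgeR adjusted p = 0.0463) was lost with DESeq2, limma-voom, library totals alone, no low-count filter, a replicate block and any 1 library but hypoxia replicate 3 left out, at adjusted p from 0.057 to 0.198. That of MTCO3P29 was lost without hypoxia replicate 2 (edgeR adjusted p = 0.0729).

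Nuclear genes that act on mitochondrial RNA were counted in 3 lists, against a background of 31.0% of all tested genes called lower and 31.2% higher. Of 10 genes of mitochondrial transcription, 4 were lower and 2 higher, a lower share near that background. TFAM, which packages mitochondrial DNA and acts at its promoters, was at 37.4 ± 3.43 CPM in hypoxia and 108 ± 3.38 CPM in normoxia (SD, n = 3 each), and changed by -1.54 ± 0.10 on the log2 scale (SE; edgeR adjusted p = 5.63e-07). TFB2M, which opens the promoters, changed by -0.95 and the termination factor MTERF1 by -1.02 on the log2 scale. POLRMT, the mitochondrial RNA polymerase, was at 36.7 ± 2.86 CPM in hypoxia and 27.6 ± 2.76 CPM in normoxia (edgeR adjusted p = 0.0138). Its call was lost with library totals alone (adjusted p = 0.519) and when low-count genes were kept (0.159). It was also lost on leaving out hypoxia replicate 1 (0.0501), hypoxia replicate 2 (0.0523), normoxia replicate 1 (0.0688) or normoxia replicate 2 (0.0966), all with edgeR. MTERF3 changed by 0.57, a call lost with library totals alone (0.179) and without normoxia replicate 1 (0.0632).

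Of 24 tested genes of RNA processing and tRNA maturation, 16 were lower and 4 higher, where 31.0% of all tested genes were lower and 31.2% higher. The largest falls at a mean of at least 10 CPM were in QTRT2, a subunit of the enzyme that puts queuine into tRNA, at a log2 change of -2.36, in NSUN3, a methyltransferase of mitochondrial tRNA, at -1.93, and in PTCD2, a pentatricopeptide repeat protein, at -1.84. The rises were led by TRMU, which thiolates mitochondrial tRNA, at 1.09, TRIT1, which modifies adenosine next to the anticodon, at 0.67, and GRSF1, an RNA-binding protein of mitochondrial RNA granules, at 0.57. The enzymes that cut the tRNAs out were picked out after their values were seen. The log2 changes of the RNase P subunits TRMT10C, HSD17B10 and PRORP, which cut at the 5′ end, were -1.08, -0.68 and -1.11, and ELAC2, which cuts at the 3′ end, was at 29.3 ± 0.921 CPM in hypoxia and 72.7 ± 2.97 CPM in normoxia. All 4 were called lower (edgeR adjusted p from 1.32e-06 to 0.00444).

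Of 12 genes of RNA stability and decay, 7 were lower and 0 higher with edgeR, beside the same 31.0% and 31.2% of all tested genes. PNPT1, which encodes polynucleotide phosphorylase, was at 15.2 ± 1.88 CPM in hypoxia and 53.7 ± 2.45 CPM in normoxia (edgeR adjusted p = 7.16e-07). ANGEL2 changed by -1.77 and FASTKD3, of a family of mitochondrial RNA-binding proteins, by -1.41. LRPPRC, which stabilises mitochondrial mRNAs, was at 228 ± 10.6 CPM in hypoxia and 308 ± 11.2 CPM in normoxia (edgeR adjusted p = 0.00128). RNASEH1, an RNase also active on mitochondrial RNA-DNA hybrids, is in none of the 3 lists and was named with earlier results of these data known. It changed by -4.28 ± 0.22 on the log2 scale (SE; edgeR adjusted p = 9.44e-08). The medians of the tested members were -0.41, -0.80 and -0.36 for the transcription, processing and decay lists, beside 0.01 over all tested genes. With library totals alone, 8, 19 and 9 members of these lists were called lower and 0, 3 and 0 higher.

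**Figure D5:**
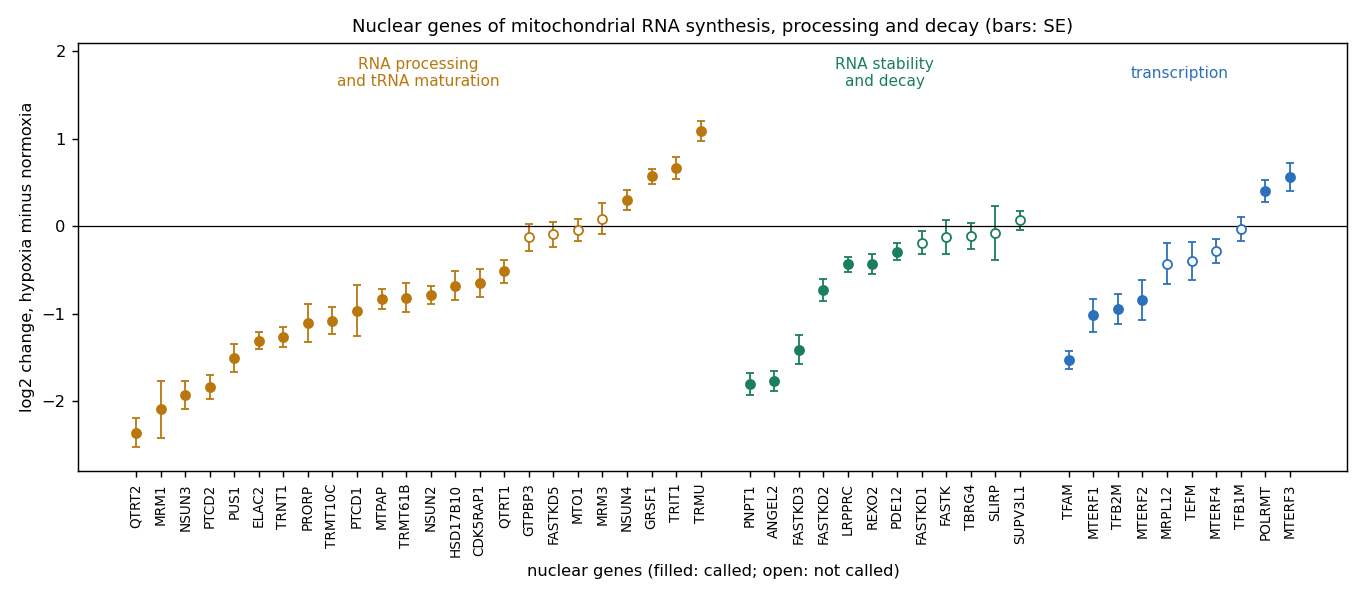
Log2 change of hypoxia minus normoxia with its SE (edgeR) for the tested nuclear genes of mitochondrial RNA processing, RNA decay and transcription, filled where called. In processing 16 of 24 are called lower, in decay 7 of 12 and in transcription 4 of 10, and TRMU is the highest point at 1.09.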

How the data were processed

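The 6 libraries are RNA sequencing of IOMM-Lee cells, 3 from hypoxia and 3 from normoxia. Per the submitters' processing notes the tools were fastp 0.20.1, HISAT2 2.1.0, featureCounts 2.0.1 and DESeq2 1.37.5 with the build GRCh38.p13, and the library kit was NEBNext Ultra II RNA per the labels' protocols. The sources used here give neither the annotation release, the strand setting nor the handling of reads that match several places or genes. The authors deposited raw read counts per Ensembl gene. Of 61860 lines, 1 names no gene and holds 0.00243% of counts, and it was left out. A second deposited table, whose cells run together, was not used here.

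Coordinates, strands and tRNA sequences are from GENCODE release 29 on GRCh38, and 61756 of 61859 genes matched a symbol. Counts were fitted with edgeR 4.0.16 in R 4.3.3 (filterByExpr, minimum count 10 and total 15, 16411 genes kept, TMM factors 0.866 to 1.16, robust quasi-likelihood F test, Benjamini-Hochberg threshold 0.05). The SE is the log2 change divided by the square root of F, in size. Intervals of ratios are exact conditional binomial ones at 95%. Between replicates of a group, chi-square per gene was 5.75 to 39.3, above the value that sampling alone gives. Alternatives were DESeq2 1.42.0, limma-voom (limma 3.58.1), other scalings and filters, a stricter threshold, a replicate block and leaving out each library. The scripts were tested on simulated counts. The named genes were all 37 members, tested nuclear copies with a mean of at least 1 CPM, and per nuclear list up to 3 called rises and 3 called falls by size at a mean of at least 10 CPM, with POLRMT, TFAM, LRPPRC and RNASEH1. MTCYBP3, MTND5P26, TRMT10C, HSD17B10, PRORP and ELAC2 lie outside it and were chosen after their values were seen. The members and lists were chosen with earlier results of these data known.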

Additional observations from a re-analysis of the deposited data

How the results depend on the processing

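The settings tried were those named in the processing section. Over all genes, 5117 were called higher and 5091 lower. With library totals alone these were 3421 and 6905, a shift of the median log2 change to -0.30. Mitochondrial genes called higher numbered 0, but 2 with DESeq2, 1 with limma-voom, 1 with no filter on low counts, and 0 to 2 with 1 library left out. Mitochondrial tRNA genes called lower numbered 8, but 14 with no filter and 4 with CPM of at least 1 in 3 libraries, which tests more and fewer genes. Minus-strand genes called lower numbered 3, but 5 with library totals alone and 6 with no filter. Other counts of mitochondrial calls kept within 1.5 times of the reported ones.

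With a replicate block 4862 genes were called higher and 4906 lower, and MT-TH was the 1 member whose call it changed (adjusted p = 0.0542). Same-numbered libraries did not deviate together (correlations -0.106, 0.0864 and -0.0378), so the numbers were not taken as pairs. On the log2 scale, the rRNA share of counts differed by 0.05, but by -0.013 with nuclear counts as denominator and by -0.34 to 0.37 with 1 library left out. The tRNA ratio to mRNA differed by 0.94, by -0.57 as a mean of log2 counts and by 0.10 without MT-TF. The strand ratio differed by 0.70, by -0.46 as a mean of log2 counts and by 0.25 without MT-ND6 and MT-CO1. MT-RNR1, at -0.07, ranged from -0.62 to 0.40 with 1 library left out, at 0.07 without hypoxia replicate 2, 0.15 without hypoxia replicate 3 and 0.40 without normoxia replicate 3. The cause was not tested. Depth limits the low tRNA genes most.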
